A study of Mus musculus with 8 samples.

Results

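The clustered histone genes of the mouse were followed in ATCL7, a line of immortalized mouse adrenocortical tumour cells labelled male, after treatment with the kinase inhibitor BIO or with its solvent. Members were chosen by symbol alone: every symbol of the form Hist1h, Hist2h, Hist3h or Hist4h in the deposited annotation was taken. This gave 47 of 20719 genes, of which 5 encode histone H1, 12 H2A, 13 H2B, 7 H3 and 10 H4. They were read by 72 probe sets, and where a symbol had several, the brightest of them on average stood for it.

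The first group of 4 samples received 0.5 µM BIO for 24 h, and the second group of 4 received 0.01% DMSO (vehicle) for 24 h. Both groups were kept in medium with 0.025% each of fetal bovine and horse serum, so all values describe cells in low serum. BIO is an indirubin derivative that blocks glycogen synthase kinase 3 and thereby stabilises β-catenin, the question that the series title names being Wnt/β-catenin signalling. The titles put 1 BIO and 1 vehicle sample in each of 4 numbered pairs, and whether pairs were separate cultures is not stated. ATCL7 is a single immortalized line, so the p-values speak of the spread among these 8 samples, part of which may be technical.

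Histones package DNA: H2A, H2B, H3 and H4 form the core of the nucleosome, and the linker histone H1 binds where DNA enters and leaves it. The clustered genes are known for lacking introns, for being transcribed mainly in S phase, and for mRNAs that end in a stem-loop instead of a poly(A) tail. The stem-loop is bound by SLBP, and NPAT switches the genes on together. Many copies encode the same or nearly the same protein, so a probe set named for 1 gene may also bind transcripts of others. The labelling kit primes along whole transcripts, which matters for mRNAs without poly(A).

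RefSeq promoters (assembly GRCm38.p6, 250 bases before to 50 after the annotated start) were found by gene ID for 41 of the 47 genes, and 32 of these lie on chromosome 13. The promoters of all 5 H1 genes are shown, because H1 was the type with the most genes past the test, followed by those of the genes of the other types that fell. Capitals mark matches, on either strand, to 5 motifs known from histone promoters: TATAAA (the TATA box), the CCAAT box, the octamer ATTTGCAT, the H4 site GGTCCG and the H1 box AAACACA. No 2 matches overlapped within the histone promoters.

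Hist1h1c, chr13:23738557-23738856, plus strand: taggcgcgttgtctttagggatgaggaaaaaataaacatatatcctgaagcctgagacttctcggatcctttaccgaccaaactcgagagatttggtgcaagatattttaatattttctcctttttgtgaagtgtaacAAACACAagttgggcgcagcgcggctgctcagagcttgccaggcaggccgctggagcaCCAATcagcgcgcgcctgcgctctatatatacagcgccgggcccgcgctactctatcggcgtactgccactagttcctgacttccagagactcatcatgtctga
Hist1h1a, chr13:23763418-23763717, plus strand: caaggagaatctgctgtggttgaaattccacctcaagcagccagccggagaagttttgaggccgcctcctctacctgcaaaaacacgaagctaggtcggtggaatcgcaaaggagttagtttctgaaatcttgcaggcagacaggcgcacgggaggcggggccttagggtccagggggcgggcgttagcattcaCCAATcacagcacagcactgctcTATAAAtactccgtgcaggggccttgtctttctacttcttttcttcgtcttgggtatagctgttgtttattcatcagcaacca
Hist1h1b, chr13:21780576-21780875, minus strand: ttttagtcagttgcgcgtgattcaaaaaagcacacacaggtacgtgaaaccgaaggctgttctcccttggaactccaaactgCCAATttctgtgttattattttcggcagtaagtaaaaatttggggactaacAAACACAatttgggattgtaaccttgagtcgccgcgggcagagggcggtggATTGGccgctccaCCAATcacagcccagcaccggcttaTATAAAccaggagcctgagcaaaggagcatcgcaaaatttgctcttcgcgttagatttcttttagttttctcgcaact
Hist1h1d, chr13:23554782-23555081, plus strand: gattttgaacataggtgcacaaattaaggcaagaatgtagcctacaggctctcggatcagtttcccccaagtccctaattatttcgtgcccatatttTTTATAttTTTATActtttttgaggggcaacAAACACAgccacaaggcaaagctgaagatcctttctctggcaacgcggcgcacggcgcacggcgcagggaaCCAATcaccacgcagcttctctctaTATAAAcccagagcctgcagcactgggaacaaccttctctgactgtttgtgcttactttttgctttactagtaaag
Hist1h1t, chr13:23695561-23695860, plus strand: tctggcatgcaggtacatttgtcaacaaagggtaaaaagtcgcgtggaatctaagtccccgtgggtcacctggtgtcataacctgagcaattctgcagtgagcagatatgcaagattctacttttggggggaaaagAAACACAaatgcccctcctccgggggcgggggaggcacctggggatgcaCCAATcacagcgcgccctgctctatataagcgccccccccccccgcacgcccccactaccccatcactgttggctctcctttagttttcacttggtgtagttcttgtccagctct
Hist1h2aa, chr13:23934187-23934486, plus strand: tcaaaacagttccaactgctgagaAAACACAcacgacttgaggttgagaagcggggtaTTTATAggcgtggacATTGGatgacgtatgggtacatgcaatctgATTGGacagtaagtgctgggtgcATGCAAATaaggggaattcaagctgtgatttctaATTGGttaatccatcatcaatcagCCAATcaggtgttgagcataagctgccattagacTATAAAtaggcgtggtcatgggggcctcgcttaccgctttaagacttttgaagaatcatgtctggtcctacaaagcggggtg
Hist1h2bg, chr13:23571150-23571449, plus strand: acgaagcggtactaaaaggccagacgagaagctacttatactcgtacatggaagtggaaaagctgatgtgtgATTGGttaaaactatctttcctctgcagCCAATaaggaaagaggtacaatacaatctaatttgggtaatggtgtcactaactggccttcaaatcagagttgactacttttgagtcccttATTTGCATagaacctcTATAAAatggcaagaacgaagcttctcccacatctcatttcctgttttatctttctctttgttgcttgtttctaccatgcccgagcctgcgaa
Hist1h4i, chr13:22041313-22041612, minus strand: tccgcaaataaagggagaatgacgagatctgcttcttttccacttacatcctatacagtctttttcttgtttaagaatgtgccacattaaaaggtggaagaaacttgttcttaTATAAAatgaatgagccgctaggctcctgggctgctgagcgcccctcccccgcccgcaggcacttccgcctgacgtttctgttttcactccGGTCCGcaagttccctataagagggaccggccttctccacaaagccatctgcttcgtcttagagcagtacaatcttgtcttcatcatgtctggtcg

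All 5 H1 promoters carry a CCAAT box whose match nearest the start begins between positions -65 and -51, counted from the start. The H1 box begins at -112 in Hist1h1c, -117 in Hist1h1b, -122 in Hist1h1d and -114 in Hist1h1t, and these letters are not in the window of Hist1h1a. Over the 41 promoters, CCAAT was in 34, against 37.9% of the promoters of 26984 other genes. It was in every H1, H2A, H2B and H3 promoter and in 2 of 9 H4 promoters. The H4 site was in 9 of 9 H4 promoters and 1 of 10 H2B promoters, against 8.37% of other genes. The octamer was in 5 of 12 H2A and 5 of 10 H2B promoters and in no promoter of the other types, against 1.72% of other genes. Hist1h2be has 2 RefSeq promoters, and only the first was counted and drawn. The second holds an octamer at -67 and the first holds none. TATAAA was in 22 of 41, against 14.1% of other genes. The H1 box was in 8 of 41, against 7.12% of other genes, and 4 of those 8 were H1 genes. These matches describe letters, and the arrays do not measure what binds there.

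**Figure D1:**
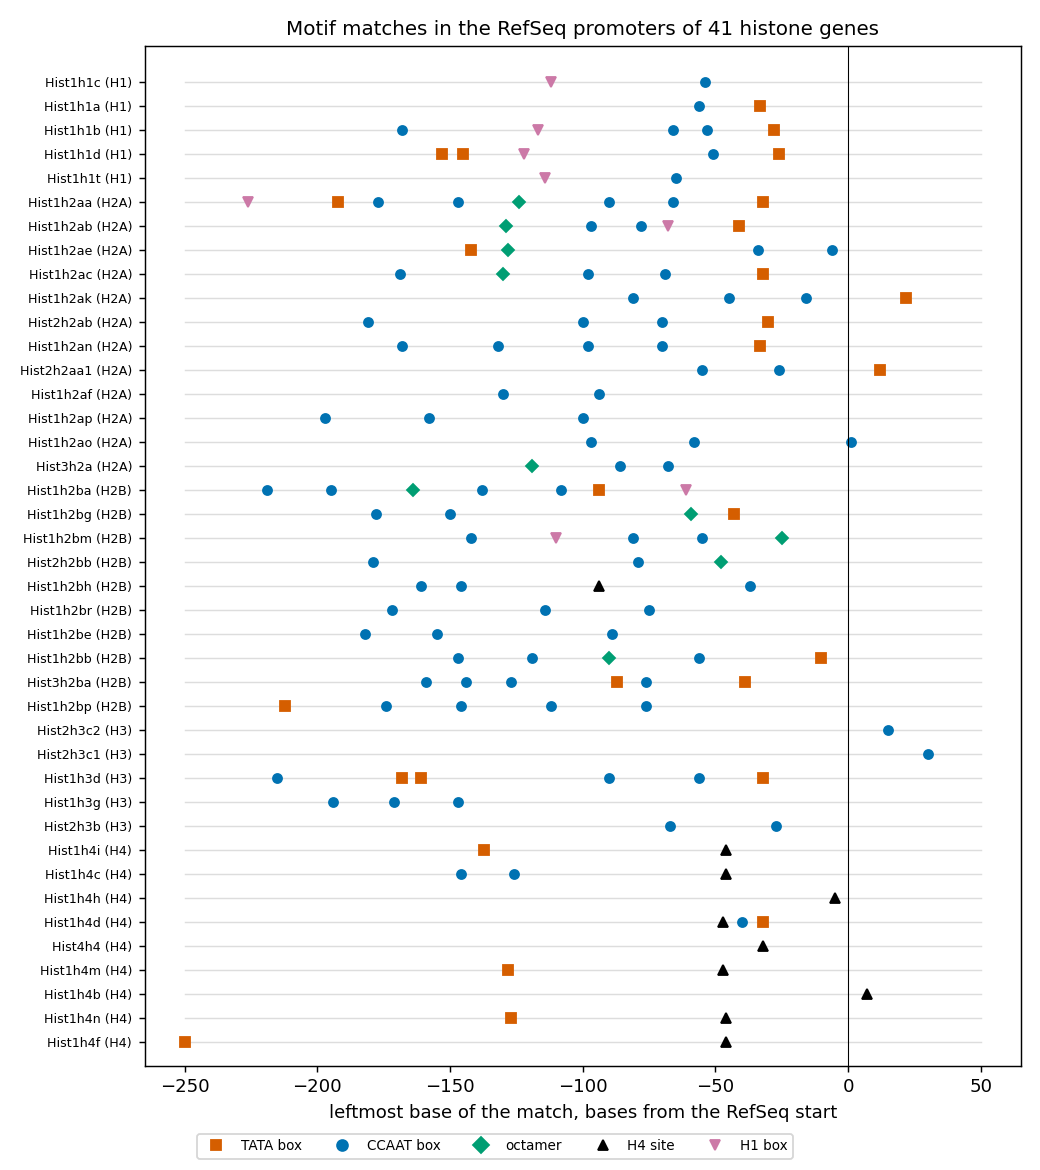
Matches to the 5 motifs in the promoters of 41 clustered histone genes, 1 row per gene with its histone type; the horizontal axis gives the leftmost base of each match in bases from the RefSeq start. The H4 site lies between -47 and 7 in all 9 H4 genes (median -46), and the octamer appears in H2A and H2B genes alone.

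Levels are log2 values from RMA, a method that corrects background, equalises arrays and summarises each probe set. They rank no gene against another, since probe sets differ in brightness for the same amount of RNA. A change is the mean of BIO minus vehicle over the 4 pairs, fitted with limma across all genes with the pair as a block. A gene was taken to have risen or fallen at a Benjamini-Hochberg adjusted p under 0.05 over the 20719 genes. Because whole cultures were read, fewer cells in a phase that uses a gene and less RNA per cell cannot be told apart.

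After BIO, 7 of the 47 clustered histone genes fell, 1 rose and 39 did not pass the test. That is 17% of the members called, against 32.7% of all 20719 genes (15.6% lower and 17% higher), a share below the background that is given as a description and was not tested. The median change over the members was -0.05 log2, against -0.01 over all genes, both with the deposited scaling. With cyclic loess scaling the member median was -0.01 log2, and no median over all genes was taken under that scaling. The mean was below vehicle for 40 members and above it for 7, against 11177 of 20719 genes below. Of these 40, 18 were very bright genes with small differences, and for most of those named the sign depends on the scaling, as given further on. The genes past the test were 4 of the 5 H1 genes, which fell, and 4 genes of other types: Hist1h2aa, Hist1h2bg and Hist1h4i fell and Hist2h2be rose. All 8 genes past the test moved the same way in 4 of 4 pairs, which choosing them by a paired test favours, so it adds no support.

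**Figure D2:**
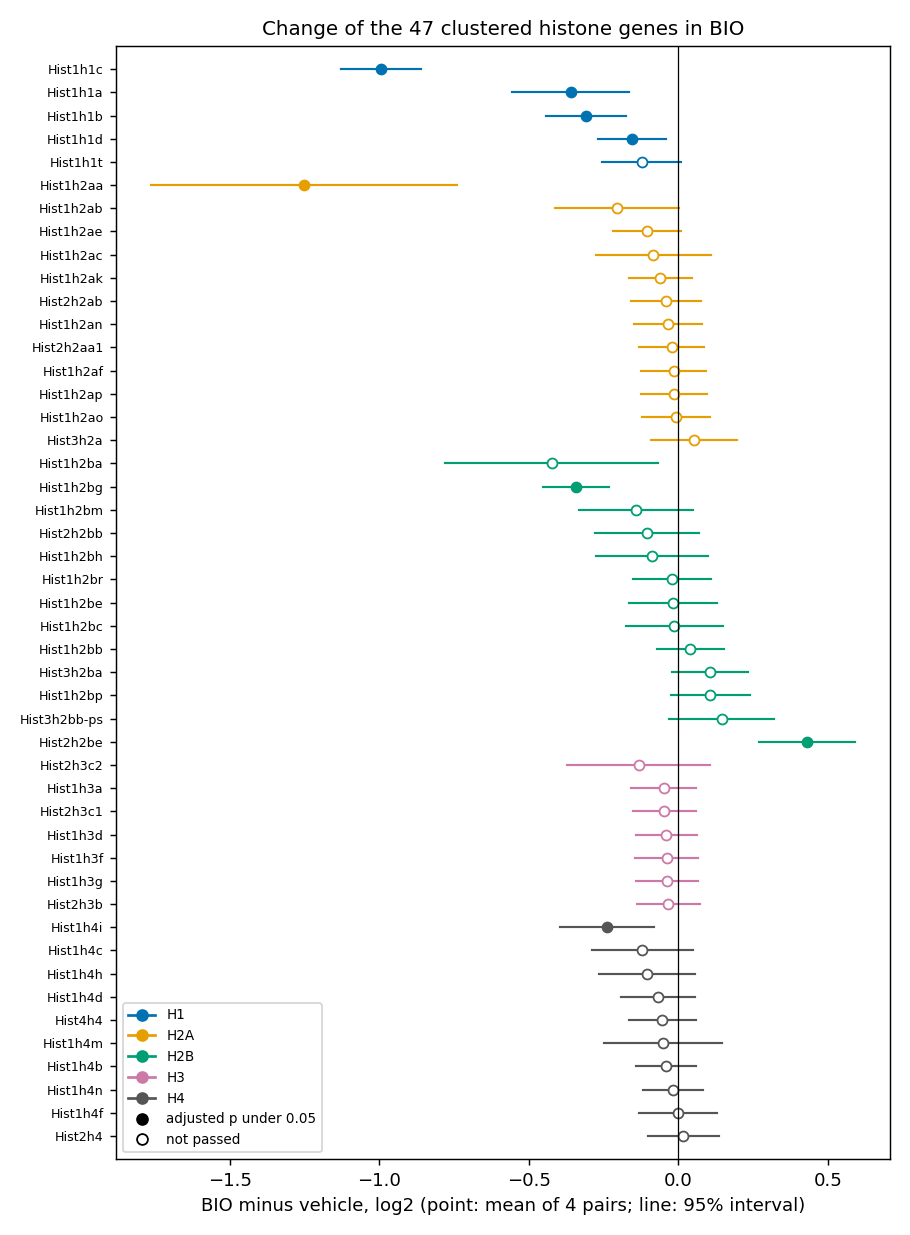
BIO minus vehicle on the log2 scale for the 47 genes, grouped by histone type (point: mean of 4 pairs; line: 95% interval; filled points passed the test). H1 genes lie left of 0, and most core histone genes lie on it, with Hist1h2aa at -1.25 and Hist2h2be at 0.43 farthest to either side among them.

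Linker histone H1 was the type with the largest share of genes past the test, 4 of 5, against 32.7% of all genes (15.6% lower). Hist1h1c, which encodes H1.2, had 9.71, 8.82, 9.09 and 8.95 log2 in BIO pairs 1 to 4, against 10.52, 9.94, 10.13 and 9.97 log2 in vehicle. Every BIO array was below every vehicle array, and the fall was between 0.81 and 1.12 log2 in each pair. The means were 9.14 ± 0.39 log2 in BIO and 10.14 ± 0.27 log2 in vehicle (SD, n = 4 each), a change of -0.995 ± 0.058 log2 (SE) or 1.99-fold lower, with a limma adjusted p of 1.05e-05. Its 95% interval ran from -1.13 to -0.86 log2.

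Hist1h1a encodes H1.1. It had 10.55, 10.30, 10.25 and 10.54 log2 in BIO, against 10.80, 10.96, 10.69 and 10.63 log2 in vehicle. The groups did not overlap, but pair 4 differed by -0.09 log2 and pair 2 by -0.66. The change was -0.36 ± 0.09 log2 (SE) or 1.28-fold lower, with a limma adjusted p of 0.012. Without pair 3 this p was 0.0547, and with pairs 3 and 4 alone 0.0904.

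Hist1h1b encodes H1.5 and had 10.90, 10.64, 10.77 and 10.82 log2 in BIO, against 11.13, 11.14, 11.08 and 11.01 log2 in vehicle. Again no BIO array reached a vehicle array. The means were 10.78 ± 0.11 log2 in BIO and 11.09 ± 0.06 log2 in vehicle (SD, n = 4 each), and the change was -0.31 ± 0.06 log2 (limma adjusted p = 0.00398).

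Hist1h1d, the gene of H1.3, gave a dim signal of 5.77, 5.43, 5.55 and 5.61 log2 in BIO and 5.84, 5.70, 5.72 and 5.71 log2 in vehicle. BIO was lower in each pair although the groups overlapped. The change of -0.15 ± 0.05 log2 passed narrowly (limma adjusted p = 0.0437), and it no longer passed when any 1 pair was left out (0.0501 to 0.162). The call was lost in 9 of 14 alternative settings, also without the pair block and with an intensity trend. Hist1h1t, the H1 of testis, was also dim at 4.61 ± 0.04 log2 in BIO and 4.73 ± 0.09 log2 in vehicle (SD, n = 4 each), and its change of -0.12 ± 0.06 log2 did not pass (limma adjusted p = 0.147). The median of the 5 H1 changes was -0.31 log2, with pair medians of -0.23, -0.50, -0.31 and -0.11 log2 in pairs 1 to 4. None of the H1 probe sets lay among the brightest 2% of genes, and each H1 gene had 1 probe set.

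**Figure D3:**
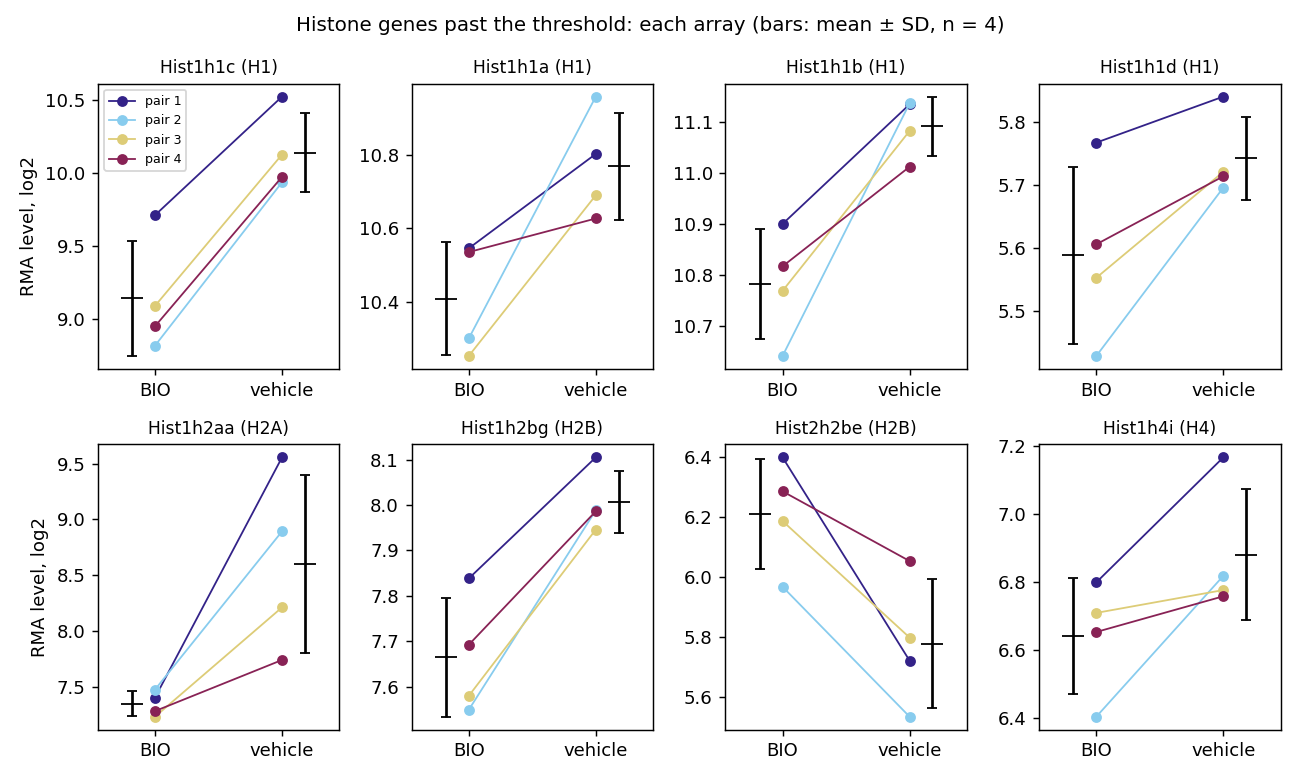
RMA log2 level on each array for the 8 clustered histone genes past the test, BIO on the left and vehicle on the right of each panel, with lines joining the arrays of a pair and bars for the mean ± SD (n = 4). Lines run upward to vehicle in 7 panels and downward in Hist2h2be, and those of Hist1h2aa fan out on the vehicle side.

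Of the 12 H2A genes, 1 fell and 11 did not pass (8.33% called, against 32.7% of all genes). The median H2A change was -0.04 log2 (-0.0036 with cyclic loess scaling). The one that fell, Hist1h2aa, encodes the testis H2A known as TH2A. It had 7.41, 7.48, 7.23 and 7.28 log2 in BIO, against 9.56, 8.89, 8.21 and 7.74 log2 in vehicle. BIO arrays lay close together and below all vehicle arrays, while vehicle arrays were spread from pair 1, the highest, to pair 4, the lowest. The means were 7.35 ± 0.11 log2 in BIO and 8.60 ± 0.79 log2 in vehicle (SD, n = 4 each), and the change of -1.25 ± 0.22 log2 or 2.38-fold lower had a limma adjusted p of 0.00301. Pair differences were -2.15, -1.42, -0.98 and -0.46 log2, and the test of pairs 3 and 4 against pairs 1 and 2 gave a limma adjusted p of 0.369.

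Hist1h2aa is transcribed away from Hist1h2ba, the gene of the testis H2B known as TH2B, and their 300-base promoter windows share 220 bases. Hist1h2ba had 6.91, 6.86, 6.91 and 7.14 log2 in BIO, against 7.45, 7.83, 7.30 and 6.94 log2 in vehicle. BIO was below vehicle in pairs 1 to 3 and above it by 0.21 log2 in pair 4. Its change of -0.42 ± 0.15 log2 did not pass (limma adjusted p = 0.0711). Leaving out 1 pair at a time gave changes from -0.63 log2 without pair 4, the pair of opposite sign (limma adjusted p = 0.00406), to -0.24 log2 without pair 2 (0.231).

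The other H2A genes changed little. Hist1h2ao had 12.45, 12.40, 12.47 and 12.50 log2 in BIO and 12.48, 12.51, 12.45 and 12.41 log2 in vehicle. Hist1h2af had 12.39, 12.37, 12.42 and 12.44 log2 in BIO and 12.45, 12.47, 12.40 and 12.37 log2 in vehicle. Hist1h2ap had 12.41, 12.35, 12.42 and 12.44 log2 in BIO and 12.44, 12.46, 12.41 and 12.37 log2 in vehicle. In all 3 the groups overlapped, with BIO lower in pairs 1 and 2 and higher in pairs 3 and 4, and the changes were -0.01, -0.02 and -0.01 log2. The interval for Hist1h2ao was -0.12 to 0.11 log2. Outside the brightest genes, Hist1h2ab differed by -0.21 ± 0.09 log2 (limma adjusted p = 0.124) and Hist3h2a, with 11.30 ± 0.10 log2 in BIO and 11.25 ± 0.13 log2 in vehicle (SD, n = 4 each), by 0.05 log2.

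Among the 13 H2B genes, Hist1h2bg fell, Hist2h2be rose and 11 did not pass (15.4% called, against 32.7% of all genes). The median H2B change was -0.02 log2 (0.01 with cyclic loess scaling). Hist1h2bg had 7.84, 7.55, 7.58 and 7.69 log2 in BIO, against 8.10, 7.99, 7.95 and 7.99 log2 in vehicle. No BIO array reached a vehicle array. The change was -0.34 ± 0.05 log2 or 1.27-fold lower (limma adjusted p = 0.000889). Its promoter window shares 279 bases with that of the divergent Hist1h2ae, which did not pass.

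Hist2h2be, which encodes an H2B variant known from mouse olfactory neurons, was the only clustered histone gene that rose. It had 6.40, 5.97, 6.19 and 6.28 log2 in BIO, against 5.72, 5.54, 5.80 and 6.05 log2 in vehicle. Ranges overlapped because pairs differed in level, but BIO was higher in every pair, by 0.68, 0.43, 0.39 and 0.23 log2. The means were 6.21 ± 0.18 log2 in BIO and 5.78 ± 0.21 log2 in vehicle (SD, n = 4 each), and the change of 0.43 ± 0.07 log2 or 1.35-fold higher had a limma adjusted p of 0.00187. The genes of the Hist3 cluster lay above 0 without passing: Hist3h2ba differed by 0.11 ± 0.06 log2 and Hist3h2bb-ps, a pseudogene by its symbol, by 0.15 log2 (limma adjusted p = 0.194 for both).

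The bright H2B probe sets also differed little between groups. Hist1h2br had 12.02, 12.07, 12.09 and 12.14 log2 in BIO and 12.08, 12.20, 12.14 and 11.98 log2 in vehicle. Hist1h2be had 11.89, 11.88, 11.93 and 11.98 log2 in BIO and 11.90, 12.06, 11.99 and 11.79 log2 in vehicle. Hist1h2bc had 11.71, 11.82, 11.86 and 11.94 log2 in BIO and 11.80, 12.001, 11.89 and 11.69 log2 in vehicle. The groups overlapped in each, BIO being lower in pairs 1 to 3 and higher in pair 4, with changes of -0.02, -0.02 and -0.01 log2.

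None of the 7 H3 genes passed, against 32.7% of all genes, with limma adjusted p-values from 0.396 to 0.636. The median H3 change was -0.04 log2 (-0.00010 with cyclic loess scaling). Hist2h3b had 12.58, 12.56, 12.59 and 12.62 log2 in BIO and 12.65, 12.64, 12.62 and 12.57 log2 in vehicle. Hist1h3g had 12.57, 12.52, 12.55 and 12.59 log2 in BIO and 12.63, 12.61, 12.60 and 12.54 log2 in vehicle. Hist1h3f had 12.51, 12.46, 12.49 and 12.54 log2 in BIO and 12.57, 12.56, 12.54 and 12.48 log2 in vehicle. BIO was below vehicle in pairs 1 to 3 and above it in pair 4 for all 3 genes, by 0.10 log2 or less in every pair. The 1 H3 gene outside the brightest 2%, Hist2h3c2, had 6.46, 5.91, 6.11 and 6.05 log2 in BIO and 6.95, 6.18, 5.90 and 6.03 log2 in vehicle, with a change of -0.13 ± 0.10 log2 that did not pass.

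Of the 10 H4 genes, Hist1h4i fell and 9 did not pass (10% called, against 32.7% of all genes). The median H4 change was -0.05 log2 (-0.06 with cyclic loess scaling). Hist1h4i had 6.80, 6.41, 6.71 and 6.65 log2 in BIO, against 7.17, 6.82, 6.78 and 6.76 log2 in vehicle. BIO was lower in each pair, by 0.37 and 0.41 log2 in pairs 1 and 2 and by 0.07 and 0.10 in pairs 3 and 4, and the groups overlapped. The change was -0.24 ± 0.07 log2 or 1.18-fold lower (limma adjusted p = 0.0284). The p was 0.119 without pair 1 and 0.109 without pair 2. Without the pair block it was 0.155.

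The brightest H4 probe sets showed small differences. Hist1h4b had 12.38, 12.29, 12.30 and 12.32 log2 in BIO and 12.41, 12.37, 12.34 and 12.32 log2 in vehicle. Hist1h4d had 12.05, 11.95, 12.12 and 12.16 log2 in BIO and 12.20, 12.12, 12.11 and 12.11 log2 in vehicle. Hist1h4n had 12.07, 11.96, 12.02 and 11.996 log2 in BIO and 12.10, 12.01, 12.02 and 11.98 log2 in vehicle. All 3 overlapped between groups, with changes of -0.04, -0.07 and -0.02 log2. Among dimmer members, Hist1h4c differed by -0.12 log2, Hist4h4 by -0.05 log2 and Hist1h4m by -0.05 log2, and none passed.

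Many of the histone probe sets were bright. Their levels ran from 4.57 to 12.60 log2 with a median of 10.59, and 18 of the 47 lay among the brightest 2% of genes, at or above 11.37 log2. The highest value of any gene on any array was 13.02 log2. Of these 18, 6 encode H2A, 3 H2B, 6 H3 and 3 H4. None passed the test, against 26% of the 415 genes in that range, and their changes lay between -0.07 and -0.01 log2, with all 95% intervals inside -0.19 to 0.15 log2. With cyclic loess scaling the sign turned in 10 of the 12 bright genes named above, so no direction is given for them. Probe sets that bright lie near the top of the array's scale, where a change in RNA gives less change in signal, and how far that holds here was not tested. Among the 29 dimmer members, 7 fell and 1 rose, or 27.6%, against 32.8% of all genes outside the brightest 2%, and their median change was -0.10 log2.

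**Figure D4:**
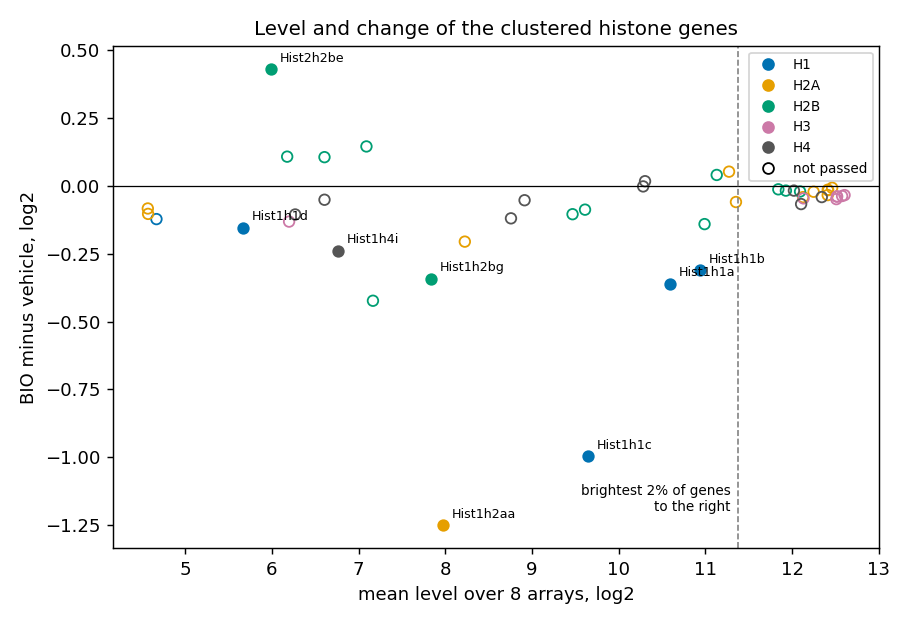
Mean level over 8 arrays (horizontal, log2) against BIO minus vehicle (vertical, log2) for the 47 genes, coloured by histone type (filled: passed the test). Genes above 11.84 log2 form a flat band between -0.07 and -0.01 log2, and all 8 genes past the test lie to its left.

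Probe sets of 1 symbol did not always agree. The 11 members with several probe sets were all represented by a bright one, and 0 of the 11 passed. Fitted separately over 28944 probe sets, 9 of the 72 histone probe sets fell, 1 rose and 62 did not pass, against 26.5% called among all probe sets. Both Hist1h2bc and Hist1h3d were called at a dimmer probe set and not at the bright one that stood for the symbol. A dimmer probe set of Hist1h2bc had 10.64, 10.23, 10.36 and 10.21 log2 in BIO, against 11.11, 11.003, 10.98 and 10.94 log2 in vehicle, with no overlap. It fell by 0.65 ± 0.06 log2 (limma adjusted p = 0.000207 over probe sets), and another, at a mean of 4.58 log2, fell by 0.22 ± 0.06 log2 (0.0304). A dimmer probe set of Hist1h3d had 6.15, 6.03, 5.94 and 5.88 log2 in BIO and 6.62, 6.11, 6.24 and 6.22 log2 in vehicle, and fell by 0.30 ± 0.07 log2 (0.0127). Their bright partners did not pass. By contrast the 6 probe sets of Hist1h2ao averaged 12.41 to 12.46 log2 and none passed. In the histone set 4 probe sets carried values identical to another of the same symbol, 2 of Hist1h2br and 2 of Hist1h4n. What sequence each probe set shares with other histone genes was not tested.

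**Figure D5:**
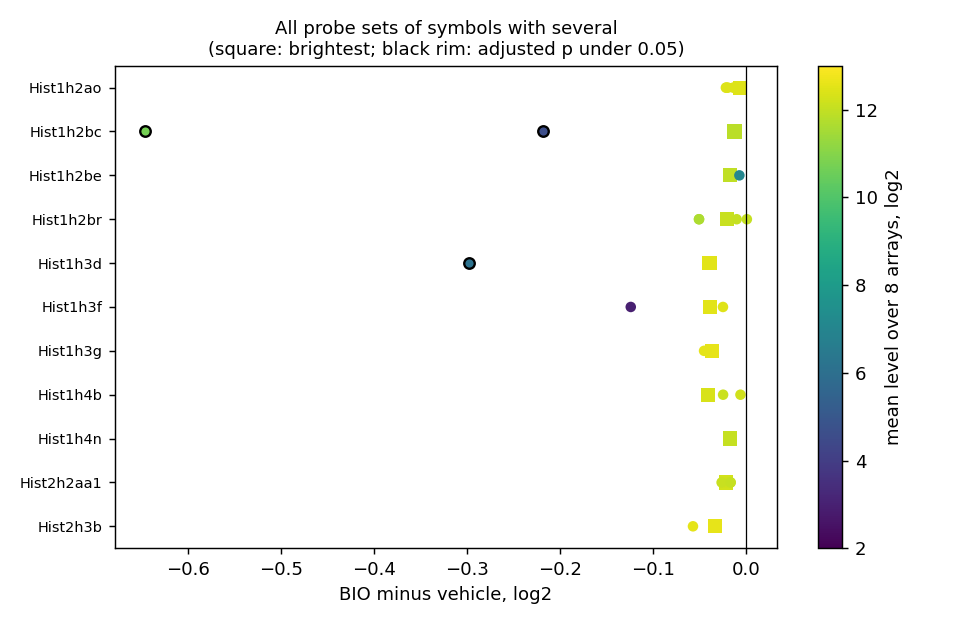
BIO minus vehicle on the log2 scale for every probe set of the 11 symbols with several, coloured by mean level over 8 arrays (square: the brightest; black rim: limma adjusted p under 0.05 over all probe sets). Rimmed points are dimmer probe sets of Hist1h2bc and Hist1h3d at -0.65, -0.22 and -0.30 log2, while the squares lie near 0.

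The direction of the small differences varied between pairs. The median over the 47 members was -0.07, -0.13, -0.04 and 0.05 log2 in pairs 1 to 4. BIO was below vehicle for 39 members in pair 1, 45 in pair 2, 30 in pair 3 and 14 in pair 4, and for 10 members in all 4 pairs. Among the 18 brightest, the count was 18, 18, 12 and 1. Pair 4 alone had a median above 0. The median stayed below 0 when any 1 pair was left out, and in pairs 3 and 4 together it was 0.01 log2. A test of pairs 3 and 4 against pairs 1 and 2 called 0 of the 47 members (lowest limma adjusted p 0.369) and 0% of all genes. Of the 47 members, 5 had groups that did not overlap, against 27% of all genes: Hist1h1c, Hist1h1a, Hist1h1b, Hist1h2aa and Hist1h2bg.

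Histone genes outside the clusters were read as a list, and many of these are used outside S phase and have poly(A) mRNAs. Of 15 measured, 3 fell and 12 did not pass, with a median of -0.07 log2. That is 20% called, against 32.7% of all genes. H2afv, which encodes the variant H2A.Z.2, averaged 10.26 ± 0.21 log2 in BIO and 10.85 ± 0.11 log2 in vehicle (SD, n = 4 each), a change of -0.60 ± 0.06 log2 (limma adjusted p = 0.000172). H2afy2, a macroH2A gene, fell by 0.28 log2 (limma adjusted p = 0.00157), and H3f3a, a gene of H3.3, by 0.21 log2 (0.00718). The other H3.3 gene, H3f3b, differed by -0.12 log2 (0.0621). The linker variant H1f0 differed by 0.12 log2 (0.0713), with a sign opposite to the clustered H1 genes.

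Of 23 genes for histone gene transcription and mRNA end processing, 2 rose, 3 fell and 18 did not pass (21.7% called, against 32.7% of all genes), with a median of -0.03 log2. Slbp, whose protein binds the stem-loop, averaged 10.42 ± 0.07 log2 in BIO and 10.71 ± 0.10 log2 in vehicle (SD, n = 4 each) and fell by 0.29 log2 (limma adjusted p = 0.00182). Cpsf2, a subunit of the cleavage complex, fell by 0.22 log2 (0.00981). Lsm10, part of the U7 particle that guides cleavage, rose by 0.23 log2 (0.00463), and Cstf2, a cleavage factor, by 0.21 log2 (0.00648). The activators did not pass: Npat differed by -0.01 log2 (0.895), Casp8ap2 by -0.10 log2 (0.166) and the H4 promoter factor Hinfp by -0.07 log2 (0.278).

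Of 10 mRNA decay genes, not all specific to histone mRNAs, 2 rose, 3 fell and 5 did not pass. Their median was -0.04 log2 and 50% were called, against 32.7% of all genes. The exonuclease gene Xrn2 fell by 0.25 log2 (limma adjusted p = 0.00407) and Pan3, of a deadenylase, by 0.20 log2 (0.00867). The decapping gene Dcp2 rose by 0.19 log2 (0.0146) and the exosome gene Exosc10 by 0.16 log2 (0.0238). Eri1, an exonuclease that trims the stem-loop end, differed by -0.12 log2 (0.141), and Upf1, a helicase needed for histone mRNA decay, by -0.04 log2 (0.553). Of 22 histone chaperone and assembly genes, 5 rose, 3 fell and 14 did not pass (36.4% called, near the 32.7% of all genes), with a median of 0.00 log2. Hjurp, the chaperone of centromeric H3, rose by 0.27 log2 (0.00263) and Asf1b by 0.22 log2 (0.00659), whereas Asf1a fell by 0.27 log2 (0.00249) and Nasp by 0.23 log2 (0.00571).

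Cell cycle genes were read beside the histones, many of which are known for transcription mainly in S phase. Of 26 S phase genes, 3 rose, 11 fell and 12 did not pass (53.8% called, against 32.7% of all genes), with a median of -0.03 log2. The replication genes Gins1 and Mcm6 fell by 0.68 and 0.50 log2 (limma adjusted p = 1.8e-05 and 0.00014) and Mcm4 by 0.28 log2 (0.00161), while Tyms, of thymidylate synthesis, rose by 0.30 log2 (0.00253). Of 20 G2 and M phase genes, 7 rose, 1 fell and 12 did not pass (40% called, against 32.7% of all genes), with a median of 0.08 log2. Cenpe rose by 0.29 log2, Birc5 by 0.24, Bub1 by 0.23 and Ube2c by 0.21. The median of the S phase list was -0.03, -0.02, -0.11 and -0.04 log2 in pairs 1 to 4. The part of cell cycle differences in the histone values was not tested.

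As a check of the cells, all 8 adrenocortical markers were lower in BIO, their summed linear signal being 3937 to 4918 in BIO and 6430 to 8345 in vehicle. Cyp11a1, Star and Nr5a1 had mean levels of 11.38, 8.85 and 9.04 log2, while Nr0b1 was dim at 4.59. The 5 medulla and 4 endothelial markers lay at 3.81 to 5.47 log2 and none was called. Of 5 leukocyte and 5 fibroblast markers, Cd68 and Col1a1 fell, or 20% called in each list, against 32.7% of all genes. Changes in the fibroblast list went both ways, from -0.23 to 0.30 log2. The part of these cell types in the histone values was not tested. Correlations across genes lay at 0.9948 to 0.9986 for arrays of the same group and 0.988 to 0.992 for arrays of different groups, and no array duplicated another. The labels number the BIO arrays ahead of the vehicle arrays and give no batch, so an effect of array order and the treatment cannot be told apart.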

How the data were processed

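The authors deposited log2 values per probe set, made with RMA in oligo per the submitters' processing notes, from perfect-match probes only per the file headers. No version of either is given in the sources used here. RMA compresses dim and very bright signals, and without detection calls it is unknown which dim probe sets lie above background. The authors also deposited p-values of a paired test and fold ratios of BIO over vehicle, and p-values with fold ratios for a further experiment.

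Of 28944 probe sets, 23812 had a symbol, and 1 was used per symbol (highest mean over the 8 arrays). The 20719 genes were tested with limma 3.58.1 in R 4.3.3 (two-sided, pair as a block, Benjamini-Hochberg adjustment, threshold 0.05; the moderated test had 8.07 degrees of freedom). Pairs come from the titles, and arrays of 1 pair deviated together from the group means, with correlations of 0.446, 0.578, 0.385 and 0.617 across genes, all above 0.1. Arrays of different pairs also correlated within pairs 1 and 2 (0.284 and 0.243) and within pairs 3 and 4 (0.392 and 0.277). The check thus also sets pairs 1 and 2 apart from pairs 3 and 4. Vehicle array 3 correlated slightly more with BIO array 4 (0.392) than with BIO array 3 of its own pair (0.385). Pair 3 was therefore not singled out by this check. Over the members alone, the same-pair correlations were 0.507, 0.500, 0.169 and 0.138 in pairs 1 to 4. There BIO array 4 correlated more with vehicle arrays 2 and 3 (0.440 and 0.349) than with vehicle array 4. An exact sign-flip test over 4 pairs cannot go below p = 0.125. The fit was tested on simulated data. The array number limits precision, and scanner files were not used here.

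Members and lists were chosen with earlier results of these data known. By rule, values are given for the 3 members of each type past the threshold with the largest change and the 3 brightest, up to 4 genes of each list past the threshold, and Slbp, Npat, Casp8ap2, Hinfp, Eri1 and Upf1. Hist1h1d, Hist1h1t, Hist1h2ba, Hist1h2ab, Hist2h3c2, Hist1h4c, Hist1h4m, Hist3h2a, Hist3h2ba, Hist3h2bb-ps, Hist4h4, H1f0, H3f3b and the dimmer probe sets were named after their values were seen. The H1 box was added after the data were seen. Of 146 list entries, 143 were measured. Promoters are RefSeq's, in GRCm38.p6; no promoter is given for Hist1h2bc, Hist1h3a, Hist1h3f, Hist2h2be, Hist2h4 and Hist3h2bb-ps.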

Additional observations from a re-analysis of the deposited data

Results flagged for a closer look

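In groups of 4 arrays, an array was set apart when its distance to the nearest of the others exceeded Dixon's critical share of the group's range (0.829), which chance gives in about 1 of 20 groups. Of 120 groups examined, 5 held such an array. Hist1h4i stood at 7.168 log2 on vehicle array 1, the other vehicle arrays lying between 6.759 and 6.819. Hist1h4d stood at 12.2 log2 on vehicle array 1, against 12.11 to 12.12 on the others, and Hist3h2a at 11.44 log2 on the same array, against 11.16 to 11.2. H2afv stood at 10.69 log2 on vehicle array 2, against 10.9 to 10.92. Hinfp stood at 8.244 log2 on BIO array 1, against 7.981 to 8.011 on the other BIO arrays. Vehicle array 1 held the high value in 3 of the 4 vehicle groups set apart, but 5 of 120 is not above the stated chance rate. The highest BIO and the highest vehicle array were both those of pair 1 for 11 of the 47 members. That share was not counted over all genes. Without pair 1, the call of Hist1h4i was lost (limma adjusted p = 0.119).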

How the results depend on the processing

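For 60 named genes under up to 15 alternatives, 896 results were compared: 794 kept their direction and side of the threshold, 53 lost the call, 15 gained it and 34 changed sign, 0 of these for a called gene. Causes were not tested. Hist1h1c and Hist1h2bg were called under every alternative run (adjusted p up to 0.0171 and 0.0285). Hist1h1b, Hist1h2aa and Hist2h2be lost the call in the authors' paired test alone (adjusted p = 0.0743, 0.12 and 0.0734).

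Without the pair block, 5023 genes were called in place of 6767, 5 histone genes were lower and 1 higher, 0 H4 genes were lower and 5 chaperone genes were called. The authors' paired test, adjusted over all genes, called 3947 genes: 2 histone genes lower and 0 higher, with 1 H1, 0 H2A and 0 H4 lower and 0 H2B higher, and 4 chaperone, 7 S phase and 5 G2 and M genes.

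In pairs 1 and 2 alone 4483 genes were called, with 2 H2A, 3 H2B and 1 H3 lower, and 1 transcription and processing, 0 decay, 1 chaperone, 7 S phase and 0 G2 and M genes; Hist3h2a was at -0.0619. In pairs 3 and 4 alone 2 histone genes were higher, the member median was 0.00991, 2 H1 and 2 H2A genes were lower, 0 H4 lower, 2 H2B higher, and 3 processing, 3 decay and 9 S phase genes called. Medians were 0.0218 for H2A, 0.0690 for H2B and 0.00217 for H3. Signs turned for Hist1h2af (0.0448), Hist1h2ao (0.0548), Hist1h2ap (0.0406), Hist1h2bc (0.11), Hist1h2be (0.069), Hist1h2br (0.0539), Hist1h3f (0.00217), Hist1h4d (0.0271), Hist1h4m (0.123), Hist1h4n (0.00991), Hist2h3b (0.00853), Hist2h3c2 (0.118) and Npat (0.00901).

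With cyclic loess the H2B median was 0.0094, and signs turned for Hist1h2af (0.0216), Hist1h2ao (0.0312), Hist1h2ap (0.0228), Hist1h2bc (0.0119), Hist1h2be (0.00914), Hist1h2br (0.00944), Hist1h3f (0.000575), Hist1h3g (0.00348), Hist1h4n (0.0112) and Hist2h3b (0.00739). With the lowest 50% of genes left out, 0 histone genes and 0 H2B were higher, Hist2h2be being left out, and 5 replication-independent histone genes were called; with an intensity trend 6 were. The mean and the dimmest probe set of each gene both gave 2 H2B and 1 H3 lower. Without the brightest 2% the H3 median was -0.13, from 1 gene.

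Leaving out 1 pair at a time called 5143 to 5948 genes, 5 to 9 histone genes lower and 1 to 2 higher. H1 lower ranged from 2 to 3, H2B lower from 1 to 4, H2B higher from 1 to 2, H4 lower from 0 to 1 and the H2B median from -0.0876 to 0.0397. The calls were 1 to 3 for decay, 4 to 6 for chaperones, 9 to 13 for S phase and 3 to 8 for G2 and M.
The change ranged from -0.0447 to 0.013 for Hist1h2af, -0.0386 to 0.0282 for Hist1h2ao, -0.0412 to 0.0165 for Hist1h2ap, -0.102 to 0.0425 for Hist1h2bc, -0.0876 to 0.0396 for Hist1h2be, -0.0809 to 0.0151 for Hist1h2br, -0.161 to 0.0361 for Hist1h4m, -0.00838 to 0.111 for Hist3h2a and -0.0216 to 0.00242 for Npat.

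The alternative without members of identical protein was not run, as no protein table was used here. Depth in the sense of read counts does not apply to arrays, and signal over background is unknown.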

Other observations

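In the authors' deposited table a further experiment sets WNT against SF1 samples, which the labels do not describe. There 31 of the 47 clustered histone genes had a fold ratio over 1, and the share of all genes over 1 was not counted. The median ratio was 1.045, against 1.014 over all genes. In the authors' t-test, only 2 of the 47 had an unadjusted p under 0.05, against 12.9% of all genes. Hist2h2be, the histone gene that rose after BIO, had a ratio of 2.12 in the authors' deposited table (unadjusted p = 0.0439), and Hist1h4h had 1.38 (unadjusted p = 0.0117). After Benjamini-Hochberg adjustment of the authors' deposited p-values these were 0.379 and 0.308, and 0% of the 20719 genes passed, against 12.9% at an unadjusted p under 0.05. Both genes were singled out after their values were seen.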
